A study of Mus musculus with 7 samples.

Results

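Interferon-stimulated genes were examined in single-cell RNA profiles of the mouse mammary gland. The set held 41 genes, taken as the rows of 41 fixed symbols in the raw count matrix of 27998 genes, and all 41 had a row of their own. The profiles came from abdominal mammary glands, freed of lymph nodes, of 3 young (3 to 4 months) and 4 aged (13 to 14 months) females. All mice were nulliparous, untreated, at diestrus and of a background that mixed FVB, 129 and C57BL/6J. Each mouse gave 1 library, made from dissociated tissue with 10x Chromium 3′ v2 chemistry. The mice are called Young A to C and Aged A to D. The 13684 cells carried the study's own names for 13 cell types: myoepithelial cells, luminal cells of hormone-sensing (HS), alveolar (AV) and mixed (HS-AV) identity, fibroblasts, pericytes, vascular and lymphatic endothelial cells, Ma and Mb macrophages, dendritic cells, NK cells, and T and B cells.

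Interferons are secreted proteins that cells release on sensing foreign or misplaced nucleic acid. Type I interferons bind the receptor of IFNAR1 and IFNAR2 and, through the kinases JAK1 and TYK2, activate a complex that includes STAT2 and IRF9 and binds the interferon-stimulated response element (ISRE) in promoters; type II interferon acts on the GAS element. The genes switched on include transcription factors that extend the response, sensors of viral nucleic acid, effectors that block viral translation, replication or release, and GTPases that attack vacuoles of intracellular pathogens. Many of them are also expressed at a low tonic level in endothelial cells and macrophages without infection.

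The promoters of the members share short DNA motifs. A window from 250 bases before to 50 bases after the transcription start was held by RefSeq (GRCm38.p6) for 33 of the 41 members. The ISRE core GAAANNGAAA, searched on both strands, was found in the windows of 19 of these 33 members (57.6%) and of 1060 of 26992 other genes (3.93%), with 3.44% of all 32851 windows holding it. The GAS core TTCNNNGAA, which reads the same on both strands, was found for 10 of 33 members (30.3%) and for 9.53% of other genes, with 8.30% of all windows holding it. Both cores were found for 7 members and neither for 11. The windows of Irf7, Irf1, Xaf1 and Cmpk2, which were called with age, held no ISRE core. Ifi27l2a, the member called in the most cell types, had no window. Stretches of 60 bases are shown for 5 called members, picked because their windows hold an ISRE core. Each is read 5′ to 3′ along the strand of its gene, with the ISRE cores in capitals.
Ifit1, chr19:34640769-34640828, plus strand: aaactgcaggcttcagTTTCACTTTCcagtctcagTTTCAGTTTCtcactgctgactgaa
Ifit3, chr19:34583365-34583424, plus strand: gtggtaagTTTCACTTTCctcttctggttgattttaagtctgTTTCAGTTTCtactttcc
Isg15, chr4:156200856-156200915, minus strand: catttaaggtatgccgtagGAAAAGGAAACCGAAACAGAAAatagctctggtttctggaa
Rsad2, chr12:26456538-26456597, minus strand: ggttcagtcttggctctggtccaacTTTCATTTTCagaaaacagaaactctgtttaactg
Bst2, chr8:71537565-71537624, minus strand: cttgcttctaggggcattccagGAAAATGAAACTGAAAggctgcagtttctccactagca
The first core of Ifit1 begins 104 bases before its start and the last 85 bases before it, and Ifit3, the neighbouring gene of the same family, holds the same pair of cores, TTTCACTTTC and TTTCAGTTTC, at 156 and 122 bases before the start. In Isg15 the 3 cores overlap, and the first begins 78 and the last 66 bases before the start. A core is a match of letters and not evidence that a factor bound there.

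The libraries differed in size and in more than age. Totals ran from 6652599 to 16999625 UMIs per mouse (a UMI marks 1 captured RNA molecule), with 1264 to 2865 cells and a median of 4758.5 to 7109.5 UMIs per cell. Cell barcodes are written differently in the young and the aged libraries, and of 3 symbols present on a pair of rows (Gbp6, Schip1 and Atn1) the young counts lie on one row and the aged counts on the other, so an effect of age and one of how the libraries were made or read cannot be told apart in the comparisons of age. All 21 pairs of libraries shared a barcode, at most 10 a pair. Each named type carried its own markers: the summed vascular endothelial markers reached 1836 to 2301 CPM (UMIs scaled to a fixed library total, as used throughout) in vascular endothelial cells and 11.3 to 48.5 CPM in AV cells, and the 3 pericyte markers reached 1017 to 1706 CPM in pericytes. The pericytes also carried 733 to 1759 CPM of the endothelial markers, which is taken up with their results.

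In young mice the set was highest in cells of the vessel wall and in Ma macrophages and lowest in luminal epithelium. The UMIs of all cells of a type in a mouse were summed, and types with at least 3 cells in a mouse entered. Ma macrophages met this in the young mice alone, so the types are ordered by their young mice. The summed CPM of the 41 members averaged 12828 ± 651 (SD, n = 3) in vascular endothelial cells, 11716 ± 3196 (SD, n = 3) in Ma macrophages, 11161 ± 493 (SD, n = 3) in pericytes, 9091 ± 2478 (SD, n = 2) in lymphatic endothelial cells, 7829 ± 1647 (SD, n = 3) in fibroblasts and 5327 ± 1012 (SD, n = 3) in dendritic cells. Each of these overlapped with its neighbour in the order. Myoepithelial cells held 3920 ± 329 (SD, n = 3), below every dendritic value, and Mb macrophages held 3221 ± 746 CPM (SD, n = 3), which overlapped with them. The myoepithelial place in this order rests largely on Ifitm1, Ifitm2 and Ifitm3, since the sum without them was 481 ± 14.4 CPM (SD, n = 3). T and B cells (2525 ± 630), NK cells (2115 ± 1296), HS cells (1669 ± 172), HS-AV cells (1341 ± 476) and AV cells (1186 ± 200; SD, n = 3 each) closed the order, and again neighbours overlapped. No HS mouse reached a myoepithelial one, and no AV mouse reached an HS one. In the aged mice Mb macrophages ranged from 1782 to 19266 CPM on 3 to 9 cells per mouse. In the young mice vascular endothelial cells held the highest mean level of 18 members, Ma macrophages of 10, lymphatic endothelial cells of 6 and pericytes of 4. Mb macrophages, NK cells and dendritic cells held it for 1 each and no epithelial type or fibroblast for any.

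**Figure D1:**
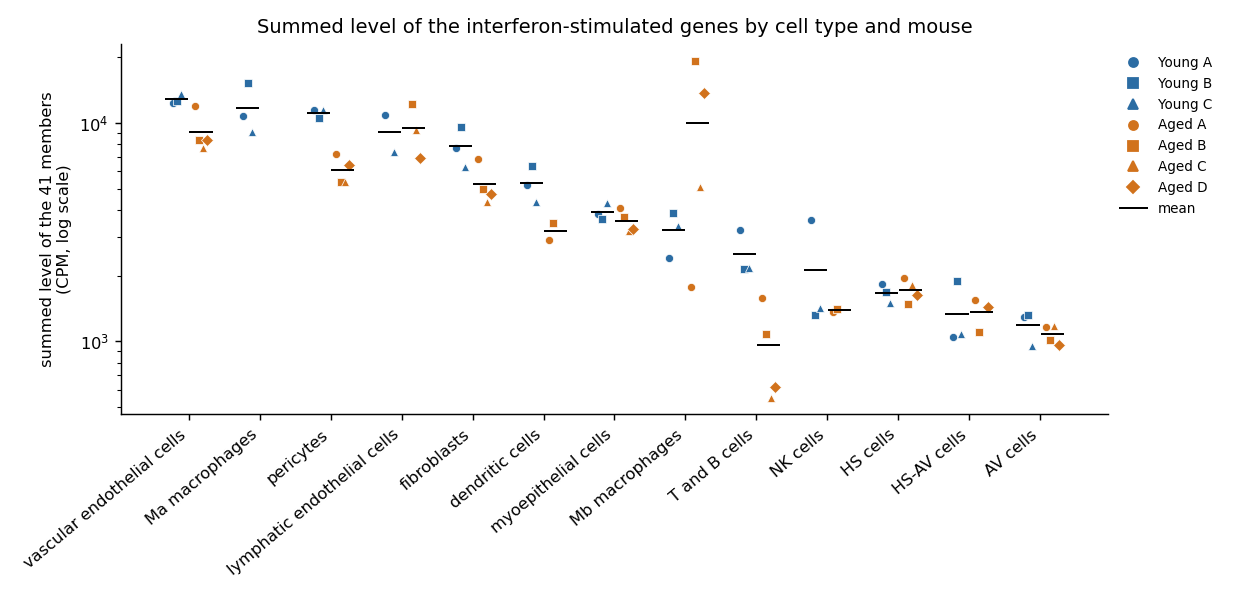
Summed CPM of the 41 members per mouse (vertical axis, log scale) in each of the 13 cell types (horizontal axis, ordered by the young mean), with 1 point per mouse coloured by age and a bar at the mean of each age. Young vascular endothelial cells and Ma macrophages average 12828 and 11716 CPM and young AV cells 1186 CPM, and Aged B and Aged D stand apart among Mb macrophages.

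Few members made up most of that sum. The 5 with the highest mean over cell types, all mice included, were Ifitm3 (1841 CPM), Ifitm2 (880 CPM), Ifi27l2a (447 CPM), Isg15 (394 CPM) and Bst2 (233 CPM). IFITM2 and IFITM3 are small membrane proteins that hinder the fusion of virus with the cell. In the young mice Ifitm3 averaged 4899 CPM in vascular endothelial cells, 4344 in pericytes, 4287 in lymphatic endothelial cells and 220 in Mb macrophages. Ifi27l2a, whose product resides in mitochondria, averaged 2767 CPM in young Ma macrophages and 1664 in young fibroblasts against 10.1 in young HS cells. Isg15, a ubiquitin-like modifier joined to proteins during infection, averaged 905 CPM in young vascular endothelial cells, 863 in pericytes, 838 in Ma macrophages and 617 in Mb macrophages, and these types overlapped in their mice. Ifit1, which binds viral RNA caps, averaged 644 CPM in young Ma macrophages, 456 in vascular endothelial cells, 391 in pericytes and 124 in Mb macrophages, with single Ma values from 147 to 1140 CPM. Bst2 (tetherin), which holds budding virus at the membrane, averaged 791 CPM in young vascular endothelial cells, above every mouse of Ma macrophages (488 CPM) and of Mb macrophages (517 CPM). Ifitm2 and Ifitm3, like Ifit1 and Ifit3, are close paralogs, and Igtp and Irgm2 overlap on the same strand, so reads may have been split between them.

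Young and aged mice were compared within each of the 8 cell types that had at least 3 cells in every mouse. Counts summed per mouse were tested with edgeR across all genes, and a member was called when the adjusted p was under 0.05 and the fold at least 1.5. Values per mouse in these comparisons are CPM scaled by TMM factors, and log2 values are aged over young with the standard error. In all, 25 of the 41 members were called in at least 1 type and 16 in none. Of the 50 calls, 45 were lower in aged mice and 5 higher. Among all genes tested, 0.233% to 14.8% were called lower and 0.219% to 14.7% higher, depending on the type. These shares were not pooled over types and are given with each type below. The values of the 2 ages did not overlap in 45 of the 50, near the share among all 5661 calls of genes in these types (92.0%).

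**Figure D2:**
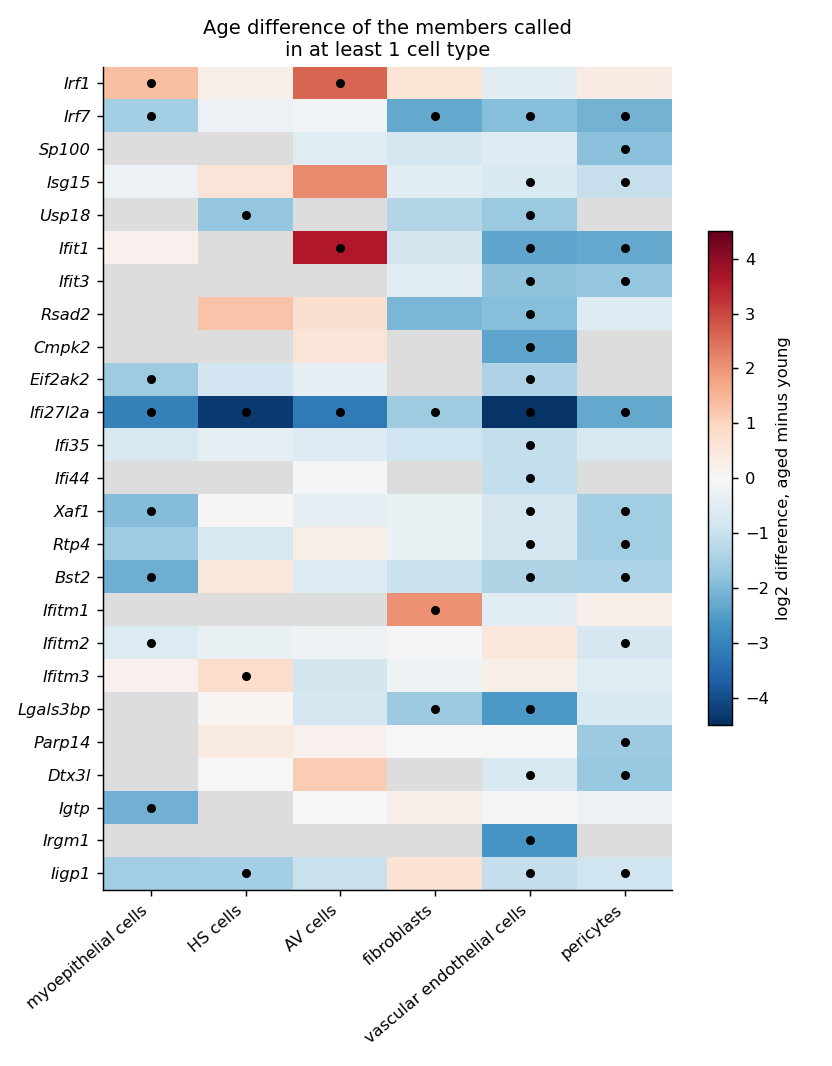
Log2 difference, aged minus young (colour, red higher and blue lower in aged mice), of the 25 members called in at least 1 cell type (rows, ordered by role) in 6 of the 8 cell types tested (columns), with a dot where the member was called and grey where it was not tested. Mb macrophages and T and B cells, with 0 calls, are not drawn. Vascular endothelial cells and pericytes hold 18 and 13 calls, all lower in aged mice, and AV cells hold Irf1 and Ifit1 among the 5 higher calls.

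**Figure D3:**
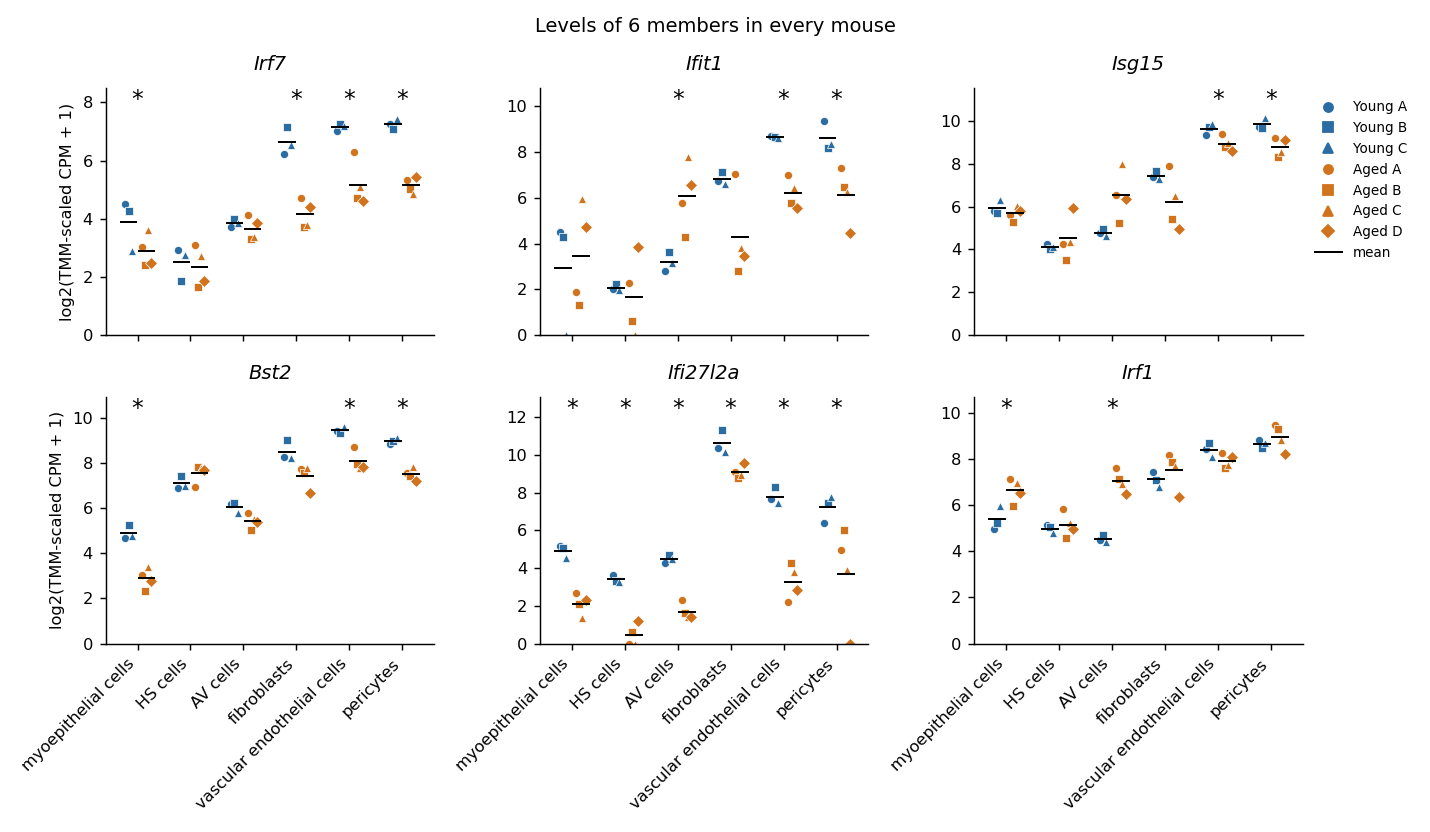
Levels of Irf7, Ifit1, Isg15, Bst2, Ifi27l2a and Irf1 as log2(TMM-scaled CPM + 1), vertical axis, in 6 cell types, horizontal axis, with 1 point per mouse, young in blue and aged in orange, a bar at the mean of the log2 values and an asterisk where the member was called. All young mice sit above all aged mice for Irf7, Ifit1, Bst2 and Ifi27l2a in vascular endothelial cells and pericytes, and below them for Irf1 and Ifit1 in AV cells.

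In vascular endothelial cells many members were lower in aged mice. Of 40 members tested, 18 were lower in aged mice (all genes tested: 12.0% lower) and 0 higher (all genes tested: 14.7% higher), and the folds of the 18 ran from 1.59 to 21.2. The median log2 of the 40 was −0.65 against −0.05 for all genes. Summed CPM without the 3 Ifitm genes was 6207 ± 263 in young mice (SD, n = 3) and 2622 ± 988 in aged mice (SD, n = 4). By role, antiviral effectors gave 12 of 16 tested lower, membrane and secreted proteins 2 of 5, GTPases 2 of 7, transcription factors 1 of 5 and the PARP14 group 1 of 3, while none of the 4 sensors was called.

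Several vascular endothelial calls rested on values that kept apart in the mice. Ifit1 stood at 416, 399 and 389 CPM in Young A, B and C and at 129, 54.2, 85.3 and 46.0 CPM in Aged A, B, C and D. The lowest young mouse lay far above the highest aged mouse (log2 −2.39 ± 0.26, edgeR adjusted p = 2.71e-05). Ifi27l2a stood at 199, 312 and 171 CPM in the young mice and at 3.62, 18.6, 12.9 and 6.04 CPM in the aged mice, the largest fold of the set in this type (log2 −4.40 ± 0.34, edgeR adjusted p = 1.77e-06). Irf7, the transcription factor that amplifies interferon production, was at 130, 153 and 145 CPM in young and at 77.1, 25.3, 32.7 and 23.4 CPM in aged mice (log2 −1.91 ± 0.31, edgeR adjusted p = 0.000471). Aged A was closer to the young mice than the other aged mice were. Lgals3bp, which encodes a secreted glycoprotein, was at 68.5, 69.1 and 36.0 CPM against 13.3, 7.43, 8.92 and 10.6 CPM (log2 −2.59 ± 0.28, edgeR adjusted p = 2.2e-05). Bst2 was at 684, 648 and 761 CPM against 415, 244, 221 and 226 CPM (log2 −1.34 ± 0.20, edgeR adjusted p = 0.00028). Both had every young mouse above every aged mouse.

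The other 13 calls ran from log2 −0.67 to −2.65. Iigp1, a GTPase that binds parasite vacuoles, was at 661, 722 and 766 CPM in young and 546, 262, 310 and 250 CPM in aged mice (log2 −1.07 ± 0.23, edgeR adjusted p = 0.0033). Isg15 was at 655, 824 and 921 CPM against 664, 432, 491 and 390 CPM (log2 −0.70 ± 0.19, edgeR adjusted p = 0.0124). Xaf1, a promoter of cell death, was at 80.0, 85.1 and 79.5 CPM against 80.8, 41.6, 40.7 and 35.5 CPM (log2 −0.75 ± 0.24, edgeR adjusted p = 0.0319). For Isg15 and Xaf1, Aged A lay within the young values. The rest, by log2, were Irgm1 (−2.65) among the GTPases and, among effectors, Cmpk2 (−2.38), Rsad2 (−1.90), Ifit3 (−1.80), Usp18 (−1.66), Eif2ak2 (−1.38), Ifi44 (−1.11), Ifi35 (−1.06) and Rtp4 (−0.78), with Dtx3l (−0.67) of the PARP14 group. Rsad2 (viperin) blocks viral replication, Usp18 removes ISG15 from proteins and dampens receptor signalling, and Eif2ak2 (PKR) halts translation on double-stranded RNA. Ifitm2 went the other way without reaching the fold limit, at 1389, 1407 and 1731 CPM against 2722, 2069, 1689 and 2166 CPM (log2 0.52 ± 0.17, edgeR adjusted p = 0.031), and Ifitm3 stood at log2 0.25 ± 0.15 (edgeR adjusted p = 0.24).

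Aged A stood above the other aged mice in 17 of the 18 lower calls of vascular endothelial cells. Its vascular endothelial cells also held 8697 CPM of Cd74, the invariant chain of antigen presentation, against 617 to 2982 CPM in the other aged mice and 188 to 576 CPM in the young, while the myeloid genes Lyz2 and Csf1r were at 2.12 and 0 CPM there. The part of Cd74 in the difference between Aged A and the others was not tested. Without Aged A, 25 members were called. When every pair of a young and an aged mouse also had to differ by a set fold in the same direction, 8 were called. Leaving out 1 mouse ended the calls of Isg15 (without Young C, edgeR adjusted p = 0.0544), Rsad2, Eif2ak2 and Ifi44 (without Young B, 0.0527 to 0.0614), Dtx3l (without Young B, Aged B or Aged D, 0.0751 to 0.211) and Xaf1 (without any mouse but Aged A, 0.0522 to 0.102).

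Markers of other cells were also lower in the aged vascular endothelial cells. Fibroblast markers were found in 17.7% to 41.6% of young and 4.21% to 15.2% of aged cells and summed to 62.1 to 331 and 15.2 to 61.4 CPM. Pericyte markers were found in 15.4% to 26.9% and 2.81% to 9.84% and summed to 98.6 to 346 and 5.59 to 66.8 CPM. Without the cells that held a fibroblast marker, 19 of 40 members tested were called, all lower (all genes tested: 1934 of 7284 called in either direction). Without those that held a pericyte marker, 17 of 39 were called, all lower (all genes tested: 2055 of 7729 called in either direction). Ifit1 then stood at log2 −2.33 and −2.35 and Ifi27l2a at −4.33 and −4.25, close to their values in all cells.

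The shares of endothelial cells with many members were lower in aged mice. With each cell thinned to 2000 UMIs, 94.4% ± 1.74 of young (SD, n = 3) and 66.3% ± 14.9 of aged (SD, n = 4) vascular endothelial cells held at least 5 members, and Aged A, at 88.3%, was the highest aged mouse. The mean number of members per cell was 9.41 ± 0.35 in young and 5.71 ± 1.28 in aged mice. For Ifi27l2a, 34.7% to 53.2% of young cells and 1.75% to 5.26% of aged cells had a UMI before thinning, at median depths of 4421 to 4740 and 4805 to 5736.5 UMIs. In AV cells, a type with little of this gene, 7.69% to 8.33% of young cells had a UMI.

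**Figure D4:**
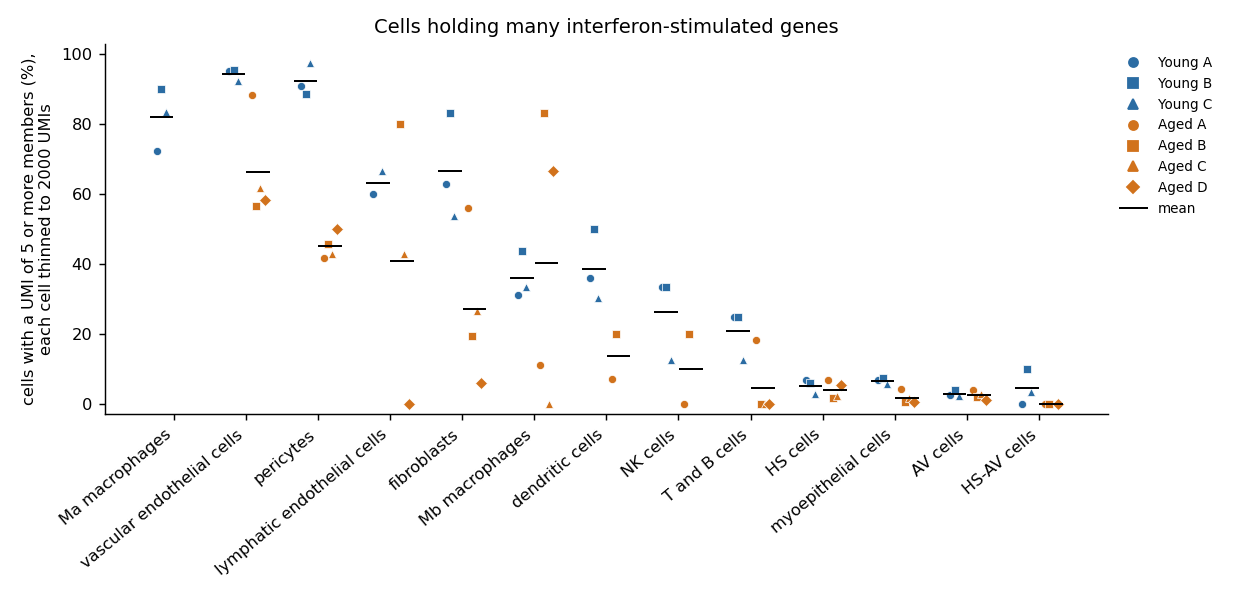
Percent of cells with at least 5 of the 41 members after thinning each cell to 2000 UMIs, per mouse (points, young and aged in separate colours) and cell type, with a bar at the mean. Vascular endothelial cells average 94.4% in young and 66.3% in aged mice, pericytes 92.4% and 45.04%, and AV cells 2.84% and 2.42%.

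Pericytes, the contractile cells around capillaries, gave the same direction. Of 22 members tested, 13 were lower in aged mice (all genes tested: 4.61% lower) and 0 higher (all genes tested: 7.19% higher), with folds of 1.68 to 4.96 and a median log2 of −0.97 against 0.01 for all genes. In 14 of the 22 every aged mouse lay below every young mouse (all genes tested: 11.2%), and in none did every aged mouse lie above. The lower members comprised 6 of 8 effectors tested, 2 of 5 membrane and secreted proteins, 2 of 3 transcription factors, 2 of 2 of the PARP14 group and 1 of 4 GTPases.

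Among the transcription factors, Irf7 stood at 151, 133 and 171 CPM in Young A, B and C and at 39.6, 31.7, 27.9 and 41.9 CPM in Aged A, B, C and D (log2 −2.11 ± 0.30, edgeR adjusted p = 0.00125). Bst2 was at 449, 502 and 552 CPM against 188, 171, 223 and 147 CPM (log2 −1.44 ± 0.21, edgeR adjusted p = 0.00143). Neither gene overlapped between the ages. Ifit1 was at 651, 288 and 327 CPM against 159, 88.9, 76.8 and 21.0 CPM, with Young A the highest and Aged D the lowest mouse (log2 −2.31 ± 0.40, edgeR adjusted p = 0.00364). Xaf1 was at 97.3, 77.5 and 97.6 CPM against 19.8, 31.7, 34.9 and 31.5 CPM (log2 −1.58 ± 0.33, edgeR adjusted p = 0.00912). Ifi27l2a was at 84.4, 174 and 220 CPM against 29.7, 63.5, 14.0 and 0 CPM (log2 −2.31 ± 0.54, edgeR adjusted p = 0.0149). Each again had all young mice above all aged mice.

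Ifitm2, Iigp1 and Isg15 had the 3 smallest folds of the 13. Ifitm2 was at 1622, 1739 and 1913 CPM in young and 1021, 971, 1012 and 1195 CPM in aged pericytes (log2 −0.74 ± 0.17, edgeR adjusted p = 0.0124). Iigp1 was at 676, 654 and 596 CPM against 278, 311, 328 and 472 CPM (log2 −0.90 ± 0.21, edgeR adjusted p = 0.0148). Isg15 was at 847, 818 and 1128 CPM against 595, 317, 370 and 556 CPM (log2 −1.03 ± 0.24, edgeR adjusted p = 0.0138). The ages did not overlap in any of these genes. The other lower members were Sp100 (log2 −1.90), a nuclear body protein, the effectors Ifit3 (−1.76) and Rtp4 (−1.55), and Dtx3l (−1.71) and Parp14 (−1.63), which act in ADP-ribosylation.

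Endothelial RNA was also lower in the aged pericytes. At least 1 UMI of the endothelial genes Pecam1 or Cdh5 was found in 91.5% to 95.9% of young pericytes and in 39.1% to 75.0% of aged pericytes, against 97.5% to 100% of vascular endothelial cells and 0% to 12.2% of fibroblasts. The pericyte markers were found in 73.2% to 90.1% of young and 63.0% to 89.3% of aged pericytes, at median depths of 4736 to 5448 and 3716 to 5901.5 UMIs. Fibroblast markers summed to 391 to 649 CPM in young and 28.3 to 109 CPM in aged pericytes. Leaving out cells that held Pecam1 or Cdh5 kept 5, 6 and 2 pericytes in Young A, B and C and 7 to 28 in the aged mice. Young C fell under 3 cells and did not enter, and 1 of 711 genes tested was called. Of 6 members tested 0 were called, at 2 of 6 with an unadjusted p under 0.05. Isg15 stood at log2 −2.13 ± 0.48 (edgeR adjusted p = 0.126) and Ifit1 at −3.07 (edgeR adjusted p = 0.318). So few cells cannot show whether the age difference was lost. Without cells that held a fibroblast marker, 4 of 20 members tested were called lower (all genes tested: 97 of 2263 called in either direction): Irf7, Bst2, Ifit1 and Rtp4. Of the other 9, Xaf1 and Dtx3l could not be tested, and 7 missed the threshold (edgeR adjusted p 0.0579 to 0.151) with log2 values of −1.86 for Sp100, −2.05 for Ifit3, −1.89 for Ifi27l2a, −1.44 for Parp14, −0.90 for Iigp1, −0.87 for Isg15 and −0.71 for Ifitm2, near those in all cells apart from Ifi27l2a. Without Young A, 6 members were called, and 9 of the 13 calls ended when some mouse was left out: Sp100, Ifit3, Xaf1 and Parp14 without Young A (edgeR adjusted p 0.0721 to 0.0907), Iigp1 without Young A or B (0.0657 to 0.0708), Isg15 without Young C (0.067), Ifitm2 without Young B or C (0.0609 to 0.0624), Dtx3l without any young mouse (0.0595 to 0.0922) and Rtp4 without Young A, Young B or Aged B (0.0541 to 0.0693). How far endothelial RNA set the age difference in pericytes was not tested further.

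In fibroblasts, of 28 members tested, 3 were lower (all genes tested: 1.11% lower) and 1 higher (all genes tested: 2.07% higher), and the median log2 was −0.30 against 0.00 for all genes. Ifi27l2a, the member that fibroblasts express most after the Ifitm genes, stood at 1313, 2575 and 1149 CPM in young and 541, 442, 489 and 768 CPM in aged mice (log2 −1.59 ± 0.29, edgeR adjusted p = 0.00914). Young B was the highest and no aged mouse reached a young one. Irf7 was at 74.5, 140 and 92.3 CPM against 24.9, 12.1, 12.9 and 20.2 CPM (log2 −2.31 ± 0.37, edgeR adjusted p = 0.00417), and Lgals3bp was at 170, 208 and 174 CPM against 71.0, 42.4, 38.6 and 70.7 CPM (log2 −1.63 ± 0.26, edgeR adjusted p = 0.00434). Both sets of mice kept apart. Ifitm1, a paralog of Ifitm2 and Ifitm3 on the same chromosome, was the only higher member (log2 2.05 ± 0.46, edgeR adjusted p = 0.027), and its call ended without Young B, Aged A or Aged B (0.0682 to 0.0791). Aged C and Aged D had 15 and 17 fibroblasts. RNA of other cells was lower too: Cdh5 was at 8.09 to 38.5 CPM in young and 0 in all aged fibroblasts, Pecam1 at 9.91 to 23.6 against 0 to 1.72 CPM, Lyz2 at 9.22 to 36.2 against 0 to 5.17 CPM and Cd74 at 56.5 to 326 against 11.5 to 27.6 CPM, and its part in the calls was not tested. With 2000 UMIs per cell, 66.6% ± 15.0 of young (SD, n = 3) and 27.1% ± 21.2 of aged (SD, n = 4) fibroblasts held at least 5 members.

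AV cells, the milk-secreting luminal lineage, held 2 of the 5 higher calls. Of 36 members tested, 2 were higher (all genes tested: 2.90% higher) and 1 lower (all genes tested: 3.26% lower), and the median log2 was 0.05 against 0.02 for all genes. Irf1, a transcription factor induced by interferon and by inflammatory signals, stood at 21.7, 24.8 and 20.4 CPM in Young A, B and C and at 195, 138, 120 and 87.4 CPM in Aged A, B, C and D. Every aged mouse lay far above every young mouse (log2 2.62 ± 0.30, edgeR adjusted p = 0.00122). Ifit1 was at 6.05, 11.6 and 7.92 CPM in young and at 54.1, 18.4, 219 and 94.2 CPM in aged mice, with Aged C the highest and Aged B nearest to the young (log2 3.62 ± 0.81, edgeR adjusted p = 0.0287). Its call ended without any young mouse or Aged D (0.0573 to 0.124), and without Aged B 5 members were called. Ifi27l2a was lower, at 18.7, 24.8 and 21.1 CPM against 4.04, 2.04, 1.67 and 1.66 CPM (log2 −3.17 ± 0.33, edgeR adjusted p = 0.00084). Isg15, at 26.2, 29.7 and 23.8 CPM against 93.4, 36.7, 250 and 79.6 CPM, missed the threshold (log2 2.14 ± 0.57, edgeR adjusted p = 0.054), although no mouse overlapped.

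Ifit1 in AV cells lay in few cells. After thinning, 1.00% to 2.88% of young and 1.11% to 9.90% of aged AV cells had a UMI of Ifit1. Single cells reached 58 to 124 UMIs in the aged mice and 2 to 7 in the young. Irf1 was spread more widely, with a UMI in 10.4% to 22.4% of aged and 3.98% to 4.86% of young AV cells after thinning. In the 36, 32, 129 and 50 cells of Aged A to D with Ifit1, Isg15 was found in 69.4%, 40.6%, 86.0% and 66.0%, against 19.1%, 14.0%, 27.1% and 15.6% of the AV cells without Ifit1. Cxcl10, a chemokine, was found in 30.6%, 43.8%, 49.6% and 36.0% of these cells against 7.40%, 18.3%, 11.4% and 5.65% of the others. Oasl1, of the oligoadenylate synthetase-like family, was found in 38.9%, 18.8%, 47.3% and 28.0% against 4.73%, 1.49%, 3.85% and 2.63%. Ifit3 was found in 0%, 0%, 4.65% and 4.00% against 0.243%, 0.212%, 0.128% and 0.131%. In Young A, B and C, 10, 6 and 12 AV cells held Ifit1. Irf1 was found in 0%, 0% and 41.7% of them and Rsad2 in 0%, 0% and 25.0%. All Ifit1 cells of the aged mice carried an AV marker. So did all their AV cells without Ifit1, so this marker does not set the Ifit1 cells apart. An immune marker was found in 2.8%, 3.1%, 0% and 6% of the Ifit1 cells of Aged A to D, which is 1, 1, 0 and 3 cells. It was found in 1.6%, 1.3%, 0.6% and 0.8% of their AV cells without Ifit1. The Ifit1 cells had median depths of 7015.5 to 8826 UMIs and the others 6403 to 7648 UMIs. With each cell thinned to 2000 UMIs, Isg15 was found in 66.7%, 56.3%, 67.8% and 48.3% of the 18, 16, 90 and 29 cells of Aged A to D that still held Ifit1, against 8.19%, 4.83%, 12.7% and 6.14% of the others, and the shares of Cxcl10 and Oasl1 were not thinned.

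**Figure D5:**
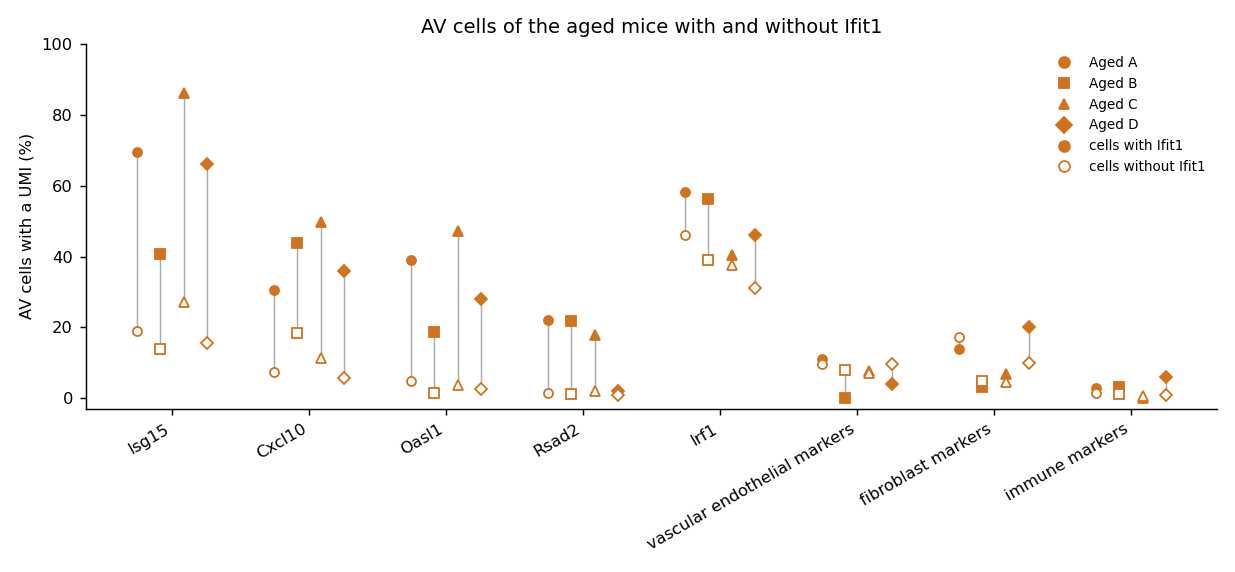
Percent of AV cells with a UMI (vertical axis) of Isg15, Cxcl10, Oasl1, Rsad2, Irf1 and the markers of other cell types (horizontal axis), in cells with Ifit1 (filled) and without it (open) of the 4 aged mice (marker shapes). Each of the 5 genes is higher in the cells with Ifit1 in the 4 aged mice, as for Isg15 in Aged C at 86.0% against 27.1%. Rsad2 in Aged D rests on 1 cell with Ifit1, at 2.00% against 1.05%. Ifit3, not drawn, was at 0% in the Ifit1 cells of Aged A and Aged B. The other cell types' markers go either way.

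In HS cells, of 26 members tested, 1 was higher (all genes tested: 3.93% higher) and 3 were lower (all genes tested: 2.33% lower), with a median log2 of 0.16 against 0.02 for all genes. Iigp1 stood at 95.8, 101 and 64.7 CPM in young and 29.6, 33.1, 27.6 and 27.9 CPM in aged mice, with a narrow range in the aged (log2 −1.53 ± 0.19, edgeR adjusted p = 0.00199). Ifitm3 rose, at 435, 442 and 370 CPM against 857, 592, 777 and 648 CPM, again with no overlap (log2 0.79 ± 0.18, edgeR adjusted p = 0.0284). Ifi27l2a was at 11.3, 8.97 and 8.69 CPM against 0, 0.54, 0 and 1.33 CPM (edgeR adjusted p = 0.00318). It rested on 105 UMIs in young and 2 UMIs in aged HS cells, a ratio of 23.8 with an exact 95% counting interval of 6.42 to 199. Usp18 was the other lower member (log2 −1.75). The calls of Usp18 and Ifitm3 ended without Young A, Young B, Young C or Aged D, which left 2 members called in each case (edgeR adjusted p 0.0508 to 0.143), and that of Ifitm3 also without Aged C (0.0616).

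In myoepithelial cells, the contractile outer layer of the ducts, 7 of 17 members tested were lower (all genes tested: 14.8% lower) and 1 was higher (all genes tested: 12.8% higher), with a median log2 of −0.86 against 0.01 for all genes. Bst2 stood at 24.7, 36.7 and 25.8 CPM in young and 7.21, 4.01, 9.61 and 5.88 CPM in aged mice (log2 −2.19 ± 0.38, edgeR adjusted p = 6e-04). Ifi27l2a was at 35.1, 32.1 and 22.6 CPM against 5.41, 3.28, 1.60 and 3.92 CPM (log2 −3.04 ± 0.38, edgeR adjusted p = 5.11e-05). Xaf1 was at 14.2, 9.17 and 12.9 CPM against 4.51, 2.18, 4.80 and 3.27 CPM (log2 −1.95 ± 0.48, edgeR adjusted p = 0.00622). In these 3 genes all young mice lay above all aged mice. Irf7 was at 21.8, 18.3 and 6.46 CPM against 7.21, 4.37, 11.2 and 4.58 CPM, with Young C inside the aged range (log2 −1.52 ± 0.46, edgeR adjusted p = 0.0213). Ifitm2 was at 963, 738 and 885 CPM against 666, 641, 460 and 488 CPM, without overlap (log2 −0.62 ± 0.20, edgeR adjusted p = 0.0273). Irf1 was the higher member, at 30.4, 36.7 and 61.3 CPM against 140, 60.4, 123 and 90.9 CPM, with Young C level with Aged B (log2 1.34 ± 0.34, edgeR adjusted p = 0.00744). Igtp (log2 −2.15) and Eif2ak2 (−1.60) completed the calls.

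Genes that mark other cells also differed with age in the epithelium. Fibroblast markers summed to 442 to 779 CPM in young and 54.8 to 178 CPM in aged myoepithelial cells, and to 84.5 to 381 CPM in young and 9.67 to 33.2 CPM in aged AV cells. Most of the myoepithelial sum was Dcn, at 393 to 698 CPM in young and 50.8 to 165 CPM in aged mice. The paper lists Dcn among the matrix genes that fell with age in myoepithelial cells, so these counts need not come from other cells. In HS cells the fibroblast markers went different ways: Dcn was at 52.0 to 85.6 CPM in young and 286 to 1825 CPM in aged mice, while Col3a1 was at 3.18 to 27.3 against 0 to 1.63 CPM and Col1a1 at 3.18 to 18.2 against 0 to 1.63 CPM. All 5 fibroblast markers had a count in each of these types. The myeloid markers, led by Cd74, were lower in aged mice in all 3 types, at 167 to 263 against 35.5 to 73.6 CPM in myoepithelial, 67.4 to 85.6 against 8.15 to 43.8 CPM in HS and 105 to 164 against 12.7 to 64.0 CPM in AV cells. Ifi27l2a, which fell in all 3, had a UMI in 83.0% to 89.7% of young fibroblasts. Without cells that held a UMI of Col1a1, Col1a2, Col3a1 or Dcn, 2 of 5 members tested were called in myoepithelial cells. Among all genes tested there, 955 of 3944 were called in either direction. In HS cells 1 of 21 was called (246 of 7580 genes) and in AV cells 2 of 34 (287 of 10433 genes). Because Dcn is among these genes, the filter may drop cells for RNA of their own. It kept 25.1% to 27.5% of young and 65.6% to 82.4% of aged myoepithelial cells. In HS cells it kept 54.3% to 82.8% of young and 21.7% to 66.4% of aged cells. The myoepithelial calls were Ifitm2 (log2 −0.77) and Ifi35 (−1.35), which was not called in all cells (−0.72), while Irf1 was no longer called (0.74, edgeR adjusted p = 0.22) and the other 6 of the 8 could not be tested. In HS cells Iigp1 was called (−1.51), Ifitm3 (0.74) and Usp18 (−1.46) missed the threshold with log2 values near those in all cells (edgeR adjusted p 0.102 to 0.111), and Ifi27l2a could not be tested. In AV cells the calls were Irf1 (log2 2.50 ± 0.32) and Ifi27l2a (log2 −2.82 ± 0.43), and Ifit1 narrowly missed the threshold (log2 3.59 ± 0.84, edgeR adjusted p = 0.0503). The myoepithelial count also fell to 4 without Young A, with Irf1 at log2 0.98 (edgeR adjusted p = 0.113), and to 5 without Aged D. Irf7 and Eif2ak2 were not called without Young B (0.0502 to 0.0648), nor Ifitm2 without Young A, Young C, Aged C or Aged D (0.0519 to 0.106).

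Mb macrophages and T and B cells gave no call at 3 to 19 cells per aged mouse. Of 6 members tested in Mb macrophages, 0 were higher (all genes tested: 0.931% higher) and 0 lower (all genes tested: 0.233% lower), while 5 had an unadjusted p under 0.05 and DESeq2 called 2. Isg15 was at 186, 809 and 1011 CPM in Young A, B and C and at 432, 9161, 3427 and 6075 CPM in Aged A, B, C and D (log2 2.85 ± 0.92, edgeR adjusted p = 0.14). Ifit1 was at 16.0, 341 and 47.0 CPM against 74.6, 8113, 1194 and 2687 CPM (log2 4.68 ± 1.50, edgeR adjusted p = 0.14). Aged B and Aged D, which were high in both genes, had 6 and 3 of these cells, and Aged A lay inside the young values. The membrane and secreted proteins pointed the other way, with summed CPM of 847 to 1284 in young and 200 to 550 in aged mice. Bst2 was at 465, 553 and 647 CPM against 298, 273, 208 and 58.4 CPM (log2 −1.29 ± 0.42, edgeR adjusted p = 0.14), and Lgals3bp was at 319, 184 and 212 CPM against 104, 0, 51.9 and 58.4 CPM (log2 −1.86 ± 0.56, edgeR adjusted p = 0.128). In both genes all aged mice lay below all young mice. Of 2 members tested in T and B cells, 0 were higher (all genes tested: 0.219% higher) and 0 lower (all genes tested: 0.438% lower), and 1, Ifi27l2a, had an unadjusted p under 0.05. It was at 1291, 919 and 1316 CPM in young and 431, 492, 0 and 42.6 CPM in aged mice (log2 −2.03 ± 0.70, edgeR adjusted p = 0.262). Ma macrophages were present in the young mice and at most 1 cell per aged mouse, so their high levels had no aged counterpart.

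Whether an age difference itself differed between cell types was tested for 3 pairs with the mouse as a block. Between HS and AV cells 3 of 31 members tested differed, 9.68% (all genes tested: 2.41%): Irf1 (log2 difference −2.43 ± 0.28, edgeR adjusted p = 6.09e-05), Ifit1 (−2.99 ± 0.71) and Ifitm3 (1.61 ± 0.29). Irf1 was at 33.7, 31.6 and 26.7 CPM in young and 56.2, 22.8, 35.9 and 30.5 CPM in aged HS cells, where the ages overlapped. Between myoepithelial and AV cells 4 of 31 differed, 12.9% (all genes tested: 9.25%), namely Ifit1 (−3.17 ± 0.70), Isg15 (−1.89 ± 0.43), Bst2 (−1.32 ± 0.37) and Ifitm3 (1.19 ± 0.26). Between vascular endothelial cells and fibroblasts 3 of 40 differed, 7.5% (all genes tested: 5.62%), Ifi27l2a (−2.89 ± 0.38), Irgm1 (−2.79 ± 0.55) and Ifitm1 (−2.40 ± 0.59). The last 2 shares lay near those of all genes. The calls of Irf1, of Ifi27l2a and of Ifitm3 between HS and AV cells held without each mouse in turn. Those of Ifit1 ended without any young mouse in HS cells (edgeR adjusted p 0.0674 to 0.183) and without Young A in myoepithelial cells (0.44), that of Irgm1 without Aged A (0.548), that of Ifitm1 without Aged B or C (0.0558 to 0.0878), and those of Isg15, Ifitm3 and Bst2 in myoepithelial cells without Young C (0.0656), without Young B (0.0705) and without any mouse but Aged C and Aged D (0.0596 to 0.0821). The count for myoepithelial against AV cells was 2 without Young A or Young C, and that for vascular endothelial cells against fibroblasts was 5 without Young C or Aged D.

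Genes upstream of the set were read from the same fits. Of 30 genes for interferons, their receptors and their signalling, 19 were tested in vascular endothelial cells, with 3 lower and 2 higher (all genes tested: 12.0% and 14.7%). The lower genes included Tlr3, a sensor of double-stranded RNA (log2 −1.04), and Socs1, a feedback inhibitor (−0.95). Ifngr2, a chain of the type II receptor (0.68), and Tmem173, which encodes STING (0.78), were higher. In AV cells 1 of 21 tested was called, Ifnar2 (log2 1.26 ± 0.23, edgeR adjusted p = 0.0124), and in pericytes, fibroblasts and HS cells none of 9, 13 and 18, with 2, 0 and 2 at an unadjusted p under 0.05. In myoepithelial cells Irf5 was higher (2.87) and Irf3 and Tmem173 were lower (−0.88 and −1.43). These genes were named after their values were seen.

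A further 46 interferon-stimulated genes outside the set were examined, of which 44 had a row. In vascular endothelial cells 3 of 36 tested were lower and 3 higher (all genes tested: 12.0% and 14.7%), in pericytes 5 of 18 lower (4.61%), and in AV cells 2 higher and 2 lower of 28 (2.90% and 3.26%). Slfn5 was lower in AV cells (log2 −3.12), vascular endothelial cells (−1.64) and pericytes (−1.61). Trim25, a ubiquitin ligase of the RNA-sensing pathway, was lower in vascular endothelial cells (−2.03) and pericytes (−1.26). In AV cells the higher genes were Cxcl10 (2.95) and Oasl1 (3.37), which are named here because they were found with Ifit1 in the same cells.

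The members without a call included all 4 sensors. Of the 16, Ddx58 (RIG-I), Ifih1 (MDA5), Dhx58 and Zbp1 are the sensors, Gbp2, Gbp3, Gbp7 and Irgm2 are GTPases, Irf9 and Stat2 belong to the factor that binds the ISRE, and Ifit2, Oas1a, Oasl2, Samd9l, Trim30a and Parp9 are effectors or their partners. Oas1a passed the filter on low counts in no type. In vascular endothelial cells, where the other 15 were tested, Stat2 stood at log2 −0.28 ± 0.38, Irf9 at −0.45 ± 0.19, Ddx58 at 0.07 ± 0.21 and Ifih1 at −0.41 ± 0.26.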

How the data were processed

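Single cells of the mammary glands of 3 young and 4 aged mice were profiled, with 1 library per mouse. Per the labels and the submitters' processing notes, the authors aligned reads to mm10 with Cell Ranger 2.0, and the deposited table holds raw UMI counts per gene and cell of all mice, not normalized. Mouse and cell type came from the authors' deposited annotation of cells, which was used as given. The study checked its clusters for doublets and removed no cluster as doublets, and no further doublet caller was run here.

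For each mouse, the UMI counts of all cells of a type were added up where it had at least 3 of them, since cells are not replicates. Sums were tested with edgeR 4.0.16 in R 4.3.3 (quasi-likelihood test, TMM factors, filterByExpr, Benjamini-Hochberg adjustment over all genes tested), with age as the only term and 1 fit per cell type. Differences between cell types in the age difference were tested as an interaction with the mouse as a block. The p-values measure the spread between mice. Shares of cells with many members were computed after thinning each cell to 2000 UMIs, a depth that every cell reached. Intervals cover counting error only. Alternatives included DESeq2 1.42.0, RLE size factors, no filter on low counts and leaving out each mouse. The code was tested on simulated data with known changes. Tables and figures were made with Python 3.11.15, pandas 2.3.3 and matplotlib 3.10.9.

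The members and the other gene lists were chosen with earlier results of these data known. Values in every mouse were given for the 8 members called in most cell types and the 5 with the highest level; other called members were given by log2 change, and genes of other lists where called in at least 2 cell types in the same direction, apart from those said to be named after their values were seen. 1 gene of the signalling list is counted but not reported here by name.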

Additional observations from a re-analysis of the deposited data

Results flagged for a closer look

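Aged A stood apart from the other aged mice in 6 of 64 values tested for an outlying mouse, its gap to the nearest aged mouse being past Dixon's critical value for the range of the group. Chance marks about 1 in 20 such groups. Values of 1 cell type come from the same cells of a mouse, and the summed CPM holds the single members. They are therefore not separate tests, and their number cannot be weighed against that rate. In vascular endothelial cells Aged A was the highest aged mouse for Usp18 (26.5 CPM), Eif2ak2 (39.8 CPM), Xaf1 (80.8 CPM), Bst2 (415 CPM) and the summed CPM of the members (11990 CPM), and in AV cells for Ifi27l2a (4.04 CPM).

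The age difference itself differed between cell types for 10 values, tested with edgeR as an interaction, each given as the log2 age difference of the first type minus that of the second. Between HS and AV cells these were 3 of 31 members tested (9.68%, against 2.41% of all genes), Ifitm3 (1.61), Irf1 (−2.43) and Ifit1 (−2.99). Between myoepithelial and AV cells they were 4 of 31 (12.9%, against 9.25%), Isg15 (−1.89), Ifitm3 (1.19), Bst2 (−1.32) and Ifit1 (−3.17). Between vascular endothelial cells and fibroblasts they were 3 of 40 (7.5%, against 5.62%), Ifitm1 (−2.40), Irgm1 (−2.79) and Ifi27l2a (−2.89). The last 2 shares lay near those of all genes.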

How the results depend on the processing

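Of 155 counts of called members under the alternatives, 122 stayed within 1.5 times the reported count. No direction reversed among 750 log2 changes or 90 interaction values, of which 653 and 76 stayed on their side of the threshold. Of 105 summed levels, the 25 under other settings all moved by less than the SD between mice. The 80 that left out a mouse cannot move by more than that SD, so they do not test it. Without the filter on low counts the calls were 13 in myoepithelial cells, 5 in AV cells, 11 in fibroblasts, 6 in Mb macrophages, 1 in T and B cells, 6 between HS and AV cells and 6 between vascular endothelial cells and fibroblasts. DESeq2 called 6 in AV cells and 2 in Mb macrophages. A set fold in the same direction in every pair of a young and an aged mouse left 5 in myoepithelial and 8 in vascular endothelial cells. Totals thinned to the lowest mouse left 2 in myoepithelial and 2 in HS cells. Alternatives chosen after seeing the data left, without cells holding fibroblast markers, 2 in myoepithelial cells, 1 in HS cells and 4 in pericytes. Without cells holding Pecam1 or Cdh5 they left 0 in pericytes, where 6 members could be tested. Young A and B kept 5 and 6 pericytes there and Young C did not enter. Requiring 10 cells per mouse was not possible for Mb macrophages or the T and B cells. The causes of these changes were not tested, beyond the fewer or more genes, cells or UMIs that each setting itself brings.

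Leaving out each mouse gave 13 to 25 calls in vascular endothelial cells, 6 to 15 in pericytes, 3 to 5 in fibroblasts, 4 to 9 in myoepithelial, 2 to 4 in HS and 2 to 5 in AV cells, 0 in Mb macrophages or lymphocytes, 2 to 4 between HS and AV cells, 2 to 6 between myoepithelial and AV cells and 2 to 5 between vascular endothelial cells and fibroblasts.

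The letters of the mice name different animals, and the labels give no pairing beyond the letter. Deviations of mice with the same letter correlated at −0.174 to 0.372, which cannot exclude a batch that they share. With the letter as a replicate block the calls were 14 in vascular endothelial cells, 9 in pericytes, 1 in fibroblasts, 5 in myoepithelial, 2 in HS and 4 in AV cells, and 3 in Mb macrophages.

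Depth limited the rarer types most: Mb macrophages had 3 to 9 cells per aged mouse, and 6 members passed the filter there.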

Other observations

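Interferon genes themselves were rare in the matrix. Of 21 rows for interferon ligands, 7 held a UMI, 530 UMIs in all, and Ifnb1, the type I interferon made first by many cells, held 409 UMIs in 66 cells. In Mb macrophages Ifnb1 had 8, 28 and 7 UMIs in Young A, B and C and 5, 189, 4 and 86 UMIs in Aged A, B, C and D. The UMIs of Aged B lay in 5 of its 6 cells, with 63 in 1 cell. Those of Aged D lay in 2 of its 3 cells, with 70 in 1 cell. Aged B and Aged D were also the highest in Isg15 and Ifit1 there, so these values rest on few cells. In AV cells it had 0 UMIs in the young mice and 0, 2, 44 and 1 UMIs in the aged mice. The 44 UMIs of Aged C lay in 13 cells, 10 of which also held Ifit1.

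Genes that tissue dissociation can induce also differed with age. Ier3, an early response gene, was higher in aged mice in myoepithelial cells (log2 1.72), HS cells (0.97), fibroblasts (1.59), vascular endothelial cells (2.00) and pericytes (0.92), while Fosb, an AP-1 subunit, was lower in myoepithelial cells (−1.30), fibroblasts (−1.29), vascular endothelial cells (−1.53) and pericytes (−1.32). The heat shock genes Hspa1a and Hspa1b were higher in fibroblasts (3.40 and 2.56) and pericytes (1.65 and 1.44). Of 17 such genes tested, 6 were higher and 1 lower in pericytes (all genes tested: 7.19% and 4.61%). In vascular endothelial cells 3 were higher and 2 lower, near the shares of all genes tested (14.7% and 12.0%). In AV cells 0 were called (all genes tested: 2.90% higher and 3.26% lower), where 6 had an unadjusted p under 0.05 with edgeR. Their part in the differences of the interferon-stimulated genes was not tested.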
